A study of Mus musculus with 12 samples.

Results

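The response of the liver to an ethanol diet was examined in mice whose hepatocytes lack the aryl hydrocarbon receptor (AhR), by comparing 3 livers labelled Ahr HKO+EtOH with 3 livers labelled Ahr HKO on control diet, which are 6 of the 12 RNA-seq libraries of the study. The members of the comparison were every gene of the deposited table, and 14038 of its 24532 genes passed the filter on low counts and were tested. All animals were C57BL/6 males, and both HKO groups carried floxed Ahr alleles (exon 2) with Cre driven by the albumin promoter, so that the deletion was shared by the ethanol-fed and the control animals and was aimed at hepatocytes and not at the other cells of the liver. The mice were 10 to 12 weeks old at the start and received a Lieber-DeCarli liquid diet for 5 weeks, with ethanol at 5% by volume (36% of calories) or an isocaloric control diet without ethanol. The other 6 libraries came from Cre-negative floxed littermates (WT) on the same pair of diets and are used here only to set the response beside that of WT. In each group 3 livers had been picked at random for sequencing. Apart from the diet, genotype, strain and tissue, the labels gave each library only a liver number and a column code, and the code was not used. P-values measure the spread between these livers.

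AhR is a ligand-activated transcription factor that pairs with ARNT and drives drug-metabolizing genes such as Cyp1a1 and Cyp1a2. Hepatocytes also secrete the acute phase proteins of blood plasma, whose genes are driven by cytokine signals through STAT3, NF-kB and C/EBP factors, and they oxidize ethanol through alcohol dehydrogenase, CYP2E1 and catalase. Other xenobiotic-sensing receptors of the hepatocyte are CAR and PXR, which drive Cyp2b, Cyp2c and Cyp3a genes. NRF2 drives glutathione and antioxidant genes. Kupffer cells, the resident macrophages of the sinusoids, are not a target of albumin-driven Cre.

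The promoters of 3 acute phase genes and of 1 clock gene are shown because their lists moved together and because a short motif lies in each window. Each run is the 250 bases before the RefSeq start of the gene (GRCm38.p6, minus strand of the reference, read 5′ to 3′ along the gene), and capitals mark a STAT-type element (TTCNNNGAA) in the first 3 and an E-box (CACGTG) in the last. For Socs3 the window lies inside the RefSeq extent of the gene, which begins 970 bases farther upstream than the start used, whereas the extents of the other 3 genes begin at the start used.
Apcs, chr1:172895055-172895304: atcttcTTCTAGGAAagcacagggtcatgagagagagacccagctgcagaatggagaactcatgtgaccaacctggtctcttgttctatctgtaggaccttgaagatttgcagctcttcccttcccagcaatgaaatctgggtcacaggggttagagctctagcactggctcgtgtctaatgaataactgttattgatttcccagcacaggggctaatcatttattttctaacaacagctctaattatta
Fgb, chr3:83049864-83050113: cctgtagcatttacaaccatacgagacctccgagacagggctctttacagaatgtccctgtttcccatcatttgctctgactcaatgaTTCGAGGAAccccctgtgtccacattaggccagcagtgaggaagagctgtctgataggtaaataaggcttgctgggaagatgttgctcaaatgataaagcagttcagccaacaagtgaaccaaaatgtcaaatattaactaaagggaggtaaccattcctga
Socs3, chr11:117969367-117969616: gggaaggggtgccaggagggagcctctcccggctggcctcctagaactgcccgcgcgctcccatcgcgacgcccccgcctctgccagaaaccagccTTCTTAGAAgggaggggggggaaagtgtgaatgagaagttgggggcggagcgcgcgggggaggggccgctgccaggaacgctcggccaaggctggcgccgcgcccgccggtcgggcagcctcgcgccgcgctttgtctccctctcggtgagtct
Cry1, chr10:85185055-85185304: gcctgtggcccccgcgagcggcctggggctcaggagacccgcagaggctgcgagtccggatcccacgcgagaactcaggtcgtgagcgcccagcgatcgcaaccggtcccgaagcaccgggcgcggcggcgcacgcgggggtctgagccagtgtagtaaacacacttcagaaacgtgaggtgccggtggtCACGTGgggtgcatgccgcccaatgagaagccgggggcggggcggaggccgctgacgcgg
Both motifs read the same on either strand and do not overlap each other. Among 27025 RefSeq promoters, the first listed for each gene, 7.18% held the STAT-type element and 6.05% the E-box in this window, and the shares were 6.28% and 8.28% among the 10708 promoters matched to tested genes. The STAT-type element lay in 7 of the 23 acute phase genes that matched the promoter table by symbol (Apcs, Fga, Fgb, Hamp, Itih4, Socs3 and Steap4), and the E-box in 5 of 16 matched clock genes (Bhlhe41, Ciart, Cry1, Per1 and Tef). The motifs were chosen after the expression values were seen, and a match describes letters and not binding.

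The 6 HKO libraries held 47949946 to 74336255 reads counted on genes, so that 3 reads corresponded to 0.043 to 0.068 CPM (counts per 1000000 reads of the TMM-scaled library). Their log2(FPKM + 1) values correlated at r = 0.99 to 0.993 among control livers and at 0.992 to 0.995 among ethanol livers, against 0.974 to 0.978 across diets. The first principal component took 65.8% of the variance and separated the diets, while HKO-control liver 3 stood apart from the other controls on the second (11.9%). The Kupffer cell genes below were lowest in that liver among the controls. Ahr itself could not check the labels, because a count per gene does not separate the floxed exon.

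Ethanol feeding changed a large part of the HKO liver transcriptome. By edgeR's quasi-likelihood test with Benjamini-Hochberg adjustment (the source of every adjusted p given here), 3093 genes were called, that is, with an adjusted p under 0.05 and a fold change above 1.5: 1447 were higher with ethanol (10.3% of all tested genes) and 1646 were lower (11.7%). Changes above 4-fold were seen in 144 genes that rose and 235 that fell. The median log2 fold change over all tested genes was -0.02. The 2 diets had CPM ranges without overlap for 49.8% of the tested genes. With each library left out in turn, the call remained all 6 times for 1753 of the 3093 genes (56.7%), and the total ranged from 2268 to 2979 in those fits. Every count of called members in a gene list stands beside these shares of 10.3% higher and 11.7% lower over all tested genes. In a gene list, a count of 3 or fewer called members could fall to 0 or 1, or rise, when a library was left out.

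The same diet in WT livers gave 924 calls (6.58% of the tested genes), 441 higher (3.14%) and 483 lower (3.44%), and 1224 genes had an adjusted p under 0.05 at any fold (8.72%). The WT count was 360 to 830 with 1 WT library left out and 1444 with DESeq2. The response differed between the genotypes, by the interaction of genotype and diet at an adjusted p under 0.05, for 3137 genes (22.3%), above 0 (higher in HKO) for 11.2% and below 0 for 11.1% of the tested genes. Of the genes called in HKO, 1743 (56.4%) were among them. Genes called in both genotypes in the same direction numbered 240, which is 7.76% of the HKO calls and 26.0% of the WT calls, and a further 97 genes were called in opposite directions. Across all tested genes, which are not independent replicates, the log2 fold changes of HKO and WT correlated at r = 0.16.

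**Figure D1:**
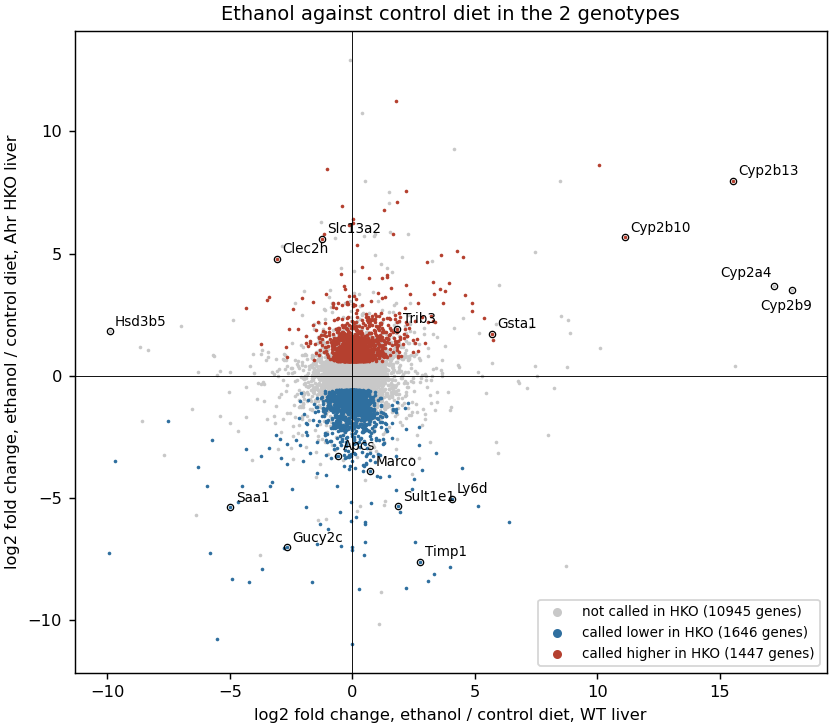
Log2 fold change of ethanol against control diet for the 14038 tested genes, in WT liver on the x axis and Ahr HKO liver on the y axis, with 1447 genes called higher in HKO in red, 1646 called lower in blue and 16 named genes circled. The values of the 2 genotypes correlate at r = 0.16 across genes, and fitted values of genes listed at 0 in a group (the Cyp2b9, Cyp2a4 and Cyp2b13 points on the right) depend on the prior count.

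Among the 15 genes with the largest falls were Saa1, Saa2, Lcn2 and A2m of the acute phase, and several genes with small counts in ethanol livers. Syt12, a synaptotagmin, was at 122, 46.9 and 63.8 CPM in the control livers and at 1.33, 1.23 and 1.67 CPM in the ethanol livers, a 55.3-fold fall (log2 -5.79 ± 0.41 SE, adjusted p = 0.0011). Adcy1, an adenylate cyclase, fell 61.2-fold from 16.5, 10.9 and 31.4 CPM to 0.482, 0.185 and 0.271 CPM (adjusted p = 0.0014). Both genes were low in all WT livers, where Syt12 reached 4.72 CPM and Adcy1 reached 0.982 CPM. Timp1, which encodes an inhibitor of matrix metalloproteinases, was at 8.05, 1.26 and 1.67 CPM in control livers and had 3 reads in all ethanol livers together, a ratio of 230 with a 95% counting interval of 78.3 to 1117. Gucy2c, a guanylate cyclase receptor, had 2 reads in the ethanol livers against 307 in the controls (ratio 163, interval 44.7 to 1350). Tm4sf20 had no read in the ethanol livers and 767 in the controls, at least 81.8-fold lower against a floor of 3 reads per library. It had no read in any WT liver. The counting intervals and floors cover counting error only. In each of Timp1, Gucy2c and Tm4sf20 HKO-control liver 1 was the highest, and the 3 controls spread from 1.05 to 10.2 CPM for Tm4sf20. Without that liver the ratios were 86.9 for Timp1 (interval 29.2 to 426) and 43.2 for Gucy2c (interval 11.4 to 366), and the bound for Tm4sf20 was at least 25.1-fold. Prtn3, a protease of neutrophil precursors, fell 36.3-fold (adjusted p = 0.013) with controls at 44.1, 10.3 and 2.78 CPM and ethanol livers at 0.765, 0.201 and 0.609 CPM.

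Among the largest rises were cytochrome P450 genes. Cyp2b10, the classic CAR target, was at 0.817, 0.239 and 6.78 CPM in the control livers and at 172, 83.6 and 138 CPM in the ethanol livers, a 51.0-fold rise (log2 5.67 ± 1.11, adjusted p = 0.011). Cyp26a1, which degrades retinoic acid, rose 30.7-fold from 2.58, 1.71 and 1.65 CPM to 111, 23.8 and 48.0 CPM (adjusted p = 0.0028). The diets did not overlap for either gene, and each was also called higher in WT livers (Cyp2b10 from 0, 0 and 0.262 to 46.8 to 408 CPM, Cyp26a1 from 4.36 to 5.57 to 41.3 to 89.4 CPM). Ppp1r3g, a glycogen-targeting subunit of protein phosphatase 1, rose 34.7-fold from at most 0.196 CPM to 2.07, 5.97 and 5.16 CPM (adjusted p = 0.0052). Fam13a rose 12.8-fold from 2.45, 2.68 and 1.67 CPM to 31.2, 37.3 and 19.2 CPM (adjusted p = 0.0013), while WT livers lay at 13.6 to 32.5 CPM on both diets. Its interaction was 4.01 on the log2 scale (adjusted p = 0.00040). Rian, a long non-coding RNA of an imprinted locus, rose 11.7-fold (0.849 to 2.92 CPM against 14.4 to 26.4 CPM, adjusted p = 0.0031). Ptgds, a prostaglandin D synthase, rose 11.7-fold as well (0.212 to 0.544 CPM against 3.49 to 4.89 CPM, adjusted p = 0.0018). Rian and Ppp1r3g were also called higher in WT (log2 3.56 and 4.26, adjusted p = 0.013 and 0.0044). Their interactions did not pass (adjusted p = 0.997 and 0.56). Mettl7a2 had no read in any control liver and was at 3.26, 4.52 and 7.80 CPM with ethanol, at least 97.0-fold higher, but it was also listed at 0 in 3 of the 6 WT libraries and has close relatives among which reads could be split.

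The receptor and its targets were examined next. Ahr was at 65.5, 41.3 and 63.3 CPM in HKO-control livers and at 41.8, 32.1 and 24.7 CPM in HKO-ethanol livers, a 1.72-fold fall with overlapping groups (adjusted p = 0.044). Without control liver 1 or 3 or ethanol liver 2 or 3 its adjusted p was 0.12, 0.10, 0.11 and 0.12. Transcript of the gene was thus counted in every HKO library, and WT livers held 16.6 to 30.5 CPM. Arnt, the nuclear partner, fell 1.53-fold (37.0, 45.2 and 53.2 CPM against 30.6, 29.1 and 28.7 CPM, adjusted p = 0.016). Its call was lost without control liver 3 (log2 -0.48, under the fold limit) and without ethanol liver 2 or 3 (adjusted p = 0.051 and 0.060). Cyp1a2, an AhR-driven monooxygenase of hepatocytes, rose 4.28-fold from 90.7, 112 and 258 CPM to 629, 684 and 658 CPM (log2 2.1 ± 0.38, adjusted p = 0.0084). All 3 ethanol livers lay above the highest control, and WT livers lay at 398 to 617 CPM on control diet and at 992 to 1212 CPM on ethanol. Cyp1a1 was low throughout, at 0.898, 0.444 and 0.827 CPM against 1.03, 1.23 and 1.67 CPM (adjusted p = 0.11). Its interaction was -1.54 (adjusted p = 0.053), with WT livers going from 0.204 to 0.349 CPM to 1.02 to 1.66 CPM. Ahrr, the AhR repressor, had at most 12 reads in any HKO library and was not tested. Cyp1b1 (log2 0.34, adjusted p = 0.46) and Tiparp (log2 -0.65, adjusted p = 0.33), both AhR targets, did not pass.

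Over the list of AhR targets, 6 of 18 tested members were called higher and 2 lower, with a median log2 fold change of 0.66 (0.58 in WT, where 9 were called higher). Nqo1, a quinone reductase that NRF2 also drives, rose 5.48-fold (1.70, 1.25 and 2.44 CPM against 11.2, 11.3 and 6.88 CPM, adjusted p = 0.0028). Ugt1a6b, a glucuronosyltransferase that shares exons with the other Ugt1a genes, rose 2.22-fold (104 to 175 CPM against 307 to 348 CPM). Htatip2, an oxidoreductase gene, rose 1.75-fold in HKO. On the log2 scale its rise was 0.80 in HKO and 1.97 in WT, with an interaction of -1.16 (adjusted p = 0.015). Without 1 of the libraries, 5 to 8 members were called higher.

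Acute phase genes fell together. Of 29 tested members 24 were called lower and none higher (against 11.7% of all tested genes called lower), with a median log2 fold change of -1.75. Saa1, which encodes serum amyloid A, was at 3065, 1772 and 3254 CPM in HKO-control livers and at 54.2, 62.1 and 77.6 CPM in HKO-ethanol livers, a 41.7-fold fall (log2 -5.38 ± 0.31, adjusted p = 0.00085). Saa2, a near-identical neighbour among whose copies reads could be split, fell 151-fold (2774, 1299 and 3170 CPM against 11.2, 19.7 and 17.0 CPM). Lcn2, the iron-carrier-binding protein lipocalin 2, fell 67.5-fold (1574, 596 and 1432 CPM against 26.1, 14.7 and 12.5 CPM, adjusted p = 0.0014). For these 3 genes every ethanol liver lay below every control liver, and liver 2 was the lowest of the controls.

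The fall reached abundant plasma proteins as well. Serpina3n, a protease inhibitor, fell 11.3-fold (6130, 5300 and 8116 CPM against 639, 501 and 586 CPM, adjusted p = 0.00085). The HKO-ethanol livers lay within the WT range for this gene, which was 432 to 755 CPM on control diet and 487 to 881 CPM on ethanol. Apcs, the serum amyloid P component whose promoter is shown above, fell 9.64-fold (245, 268 and 231 CPM against 40.0, 14.1 and 22.9 CPM, adjusted p = 0.0023). Fgb, the fibrinogen beta chain, fell 4.11-fold (18782, 17278 and 23337 CPM against 5203, 4202 and 5055 CPM, adjusted p = 0.0016). Haptoglobin and hemopexin, which bind free hemoglobin and heme, fell similarly: Hp by 3.36-fold (9772 to 12751 CPM against 3027 to 3922 CPM) and Hpx by 3.26-fold (7586 to 10090 CPM against 2275 to 2969 CPM). A2m, an alpha-macroglobulin, was far less abundant, at 30.8, 5.02 and 9.22 CPM against 0, 0.0617 and 0.0902 CPM. In WT livers A2m was at 0.0613 to 0.0714 CPM on control diet and had no read on ethanol. Socs3, the feedback inhibitor of cytokine receptors, fell 3.60-fold (41.4, 65.1 and 90 CPM against 11.5, 29.6 and 13.4 CPM, adjusted p = 0.017), and its adjusted p was 0.061 without ethanol liver 3. The summed level of the list went from 100281 to 131473 CPM in control livers to 32413 to 38937 CPM in ethanol livers.

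In WT livers 1 acute phase gene was called higher and 1 lower, with a median of -0.60, and the list summed to 36105 to 65464 CPM on control diet and 24722 to 33537 CPM on ethanol. WT-control liver 1 was far from the other WT controls for Saa1 (31.5 against 2571 and 2696 CPM) and Lcn2 (3.17 against 135 and 281 CPM). The interaction was below 0 for 11 of the 29 members and above 0 for none (against 11.1% and 11.2% of all tested genes), among them Serpina3n (-3.50, adjusted p = 0.00037), Apcs (-2.67, adjusted p = 0.012), Fgb (-1.25, adjusted p = 0.012) and Lcn2 (-4.74, adjusted p = 0.035). For Saa1 the interaction was -0.40 (adjusted p = 0.86) and for Hp -0.91 (adjusted p = 0.24). Without 1 HKO library, 19 to 23 members were called lower.

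**Figure D2:**
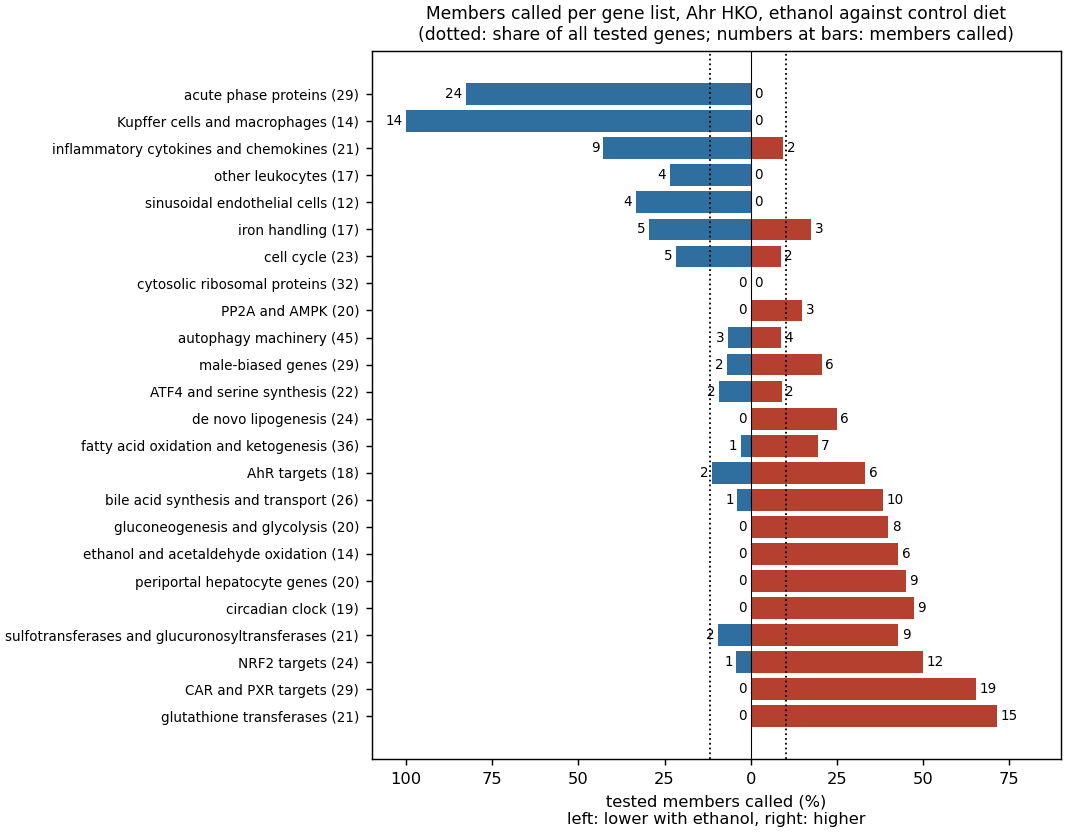
Share of the tested members of 24 gene lists called lower (left, blue) or higher (right, red) with ethanol in Ahr HKO liver, in percent, with the number of members at each bar, the number tested in parentheses and the share of all tested genes (11.7% lower, 10.3% higher) as dotted lines. Acute phase (24 of 29) and Kupffer cell genes (14 of 14) stand out on the left, and glutathione transferases (15 of 21) and CAR and PXR targets (19 of 29) on the right.

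Genes of Kupffer cells and macrophages were lower with ethanol for 14 of 14 tested members, with a median of -1.29 and a summed level of 555 to 1468 CPM in control livers and 345 to 426 CPM in ethanol livers. In bulk liver, fewer cells of a type and less RNA per cell cannot be told apart. Marco, a scavenger receptor, was at 145, 67.2 and 11.2 CPM against 3.49, 4.09 and 7.49 CPM (14.9-fold, adjusted p = 0.015). Timd4, a marker of resident Kupffer cells, fell 4.12-fold (23.8, 18.5 and 8.57 CPM against 3.47, 4.40 and 4.53 CPM, adjusted p = 0.0074). Adgre1, the F4/80 antigen, fell 4.21-fold (53.9, 32.5 and 15.2 CPM against 8.52, 6.93 and 8.70 CPM, adjusted p = 0.011). For all 3, control liver 1 was the highest and control liver 3 the lowest, the ethanol livers lay below each control, and the controls varied more than the ethanol livers. Cd5l, a secreted macrophage protein, fell 2.96-fold (112 to 310 CPM against 59.8 to 78.8 CPM), and Lyz2, lysozyme, fell 3.40-fold (54.6 to 157 CPM against 27.1 to 36.2 CPM).

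The Kupffer count depended on the libraries included: it was 8 without control liver 1, 6 without control liver 2, 14 without control liver 3, and 5, 5 and 7 without ethanol livers 1, 2 and 3. Marco's adjusted p was 0.051 without ethanol liver 1 and 0.053 without ethanol liver 2. In WT no member was called in either direction (median 0.19). WT livers summed to 708, 591 and 755 CPM on control diet and to 573, 1305 and 533 CPM on ethanol. WT-ethanol livers 1 and 3 thus lay below every WT control, and WT-ethanol liver 2 lay above them. The interaction was below 0 for 8 of the 14, among them Adgre1 (-2.33, adjusted p = 0.040) and Lyz2 (-2.23, adjusted p = 0.014). It was not refitted without WT-ethanol liver 2.

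Markers of other leukocytes were called lower for 4 of 17 and higher for none (median -0.82, or -0.51 without ethanol liver 3). Itgam, the CD11b chain of monocytes and neutrophils, fell 12.7-fold (8.88, 8.48 and 3.39 CPM against 0.411, 0.540 and 0.699 CPM, adjusted p = 0.0026). Ptprc, the CD45 antigen of all leukocytes, fell 2.81-fold (9.20 to 21.7 CPM against 4.34 to 6.39 CPM). The neutrophil calprotectin genes S100a8 and S100a9 fell 3.13-fold and 2.67-fold, at low levels of at most 5.28 CPM. Both had interactions below 0 (-3.01 and -3.08, adjusted p = 0.0011 and 0.0015), and S100a9 was called higher in WT.

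Cytokines and chemokines were called lower for 9 of 21 and higher for 2, with a median of -0.91 in HKO and 0.57 in WT. Cxcl13, a B cell chemokine, was at 37.0, 29.1 and 2.88 CPM against 0.298, 0.725 and 0.428 CPM (47.3-fold, adjusted p = 0.0073). Icam1, a leukocyte adhesion molecule, fell 2.80-fold (25.4, 28.9 and 23.7 CPM against 7.70, 11.7 and 8.36 CPM, adjusted p = 0.0027), and it was called higher in WT, from 8.69 to 13.1 CPM to 19.8 to 30.1 CPM (interaction -2.66, adjusted p = 0.00034). Ccl6 fell 3.18-fold (17.2 to 32.4 CPM against 6.52 to 7.89 CPM), whereas Ccl9 rose 2.18-fold (16.4 to 20.9 CPM against 33.2 to 49.1 CPM). Il6 and Il10 were below the filter. Macrophages are a source of several of these genes, whose list fell beside the 14 macrophage markers, and the part of the macrophage markers in this result and in that of the acute phase was not tested.

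Endothelial markers of the sinusoids were called lower for 4 of 12 (median -0.47), with sums of 534 to 553 CPM against 375 to 410 CPM. Stab1, a scavenger receptor of these cells, fell 1.85-fold (109, 89.4 and 103 CPM against 51.7, 54.8 and 56.4 CPM), and Cdh5, VE-cadherin, fell 1.75-fold. In stellate cell genes 2 rose and 2 fell of 14: Ecm1 rose 1.91-fold (82.7 to 101 CPM against 164 to 181 CPM) and Pdgfrb, the PDGF receptor of stellate cells, fell 1.99-fold. Cholangiocyte markers gave 1 of 8 in each direction, erythroid markers 0 of 6 (1 with an unadjusted p under 0.05, and 0 called by DESeq2) and hepatocyte markers 3 higher and 1 lower of 11. Without control liver 3, 2 erythroid markers were called higher and 1 lower. The hemoglobin alpha genes summed to 94.6, 81.9 and 59.1 CPM in control livers and to 191, 124 and 169 CPM in ethanol livers, without overlap, and the beta genes to 118, 79.9 and 0.040 CPM against 218, 135 and 195 CPM. The value near 0 for the beta genes in control liver 3, beside 59.1 CPM of the alpha genes, makes the beta genes uncertain there, and the part of blood cell RNA in the other results was not tested. Of the exocrine pancreas list 10 of 12 genes were below the filter and 9 had no read in any HKO library. Of the adipocyte list, with Plin1, Lep and Retn at 0 in every HKO library, 1 of 4 rose, and the fatty acid binding protein gene Fabp4, which macrophages also express, fell 5.0-fold (48.6, 50.4 and 35.4 CPM against 7.04, 10.1 and 9.74 CPM). Of 32 interferon-stimulated genes 3 were called higher (9.4%) and 5 lower (15.6%), against 10.3% and 11.7% of all tested genes. Of the 32, 9 lay above 0 and 23 below (median -0.34). The count of lower members was 1 to 3 without control liver 1 or 2 or without any 1 ethanol liver. It was 6 without control liver 3. Irgm1, an interferon-induced GTPase, fell 2.37-fold and Bst2, tetherin, rose 1.81-fold.

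**Figure D3:**
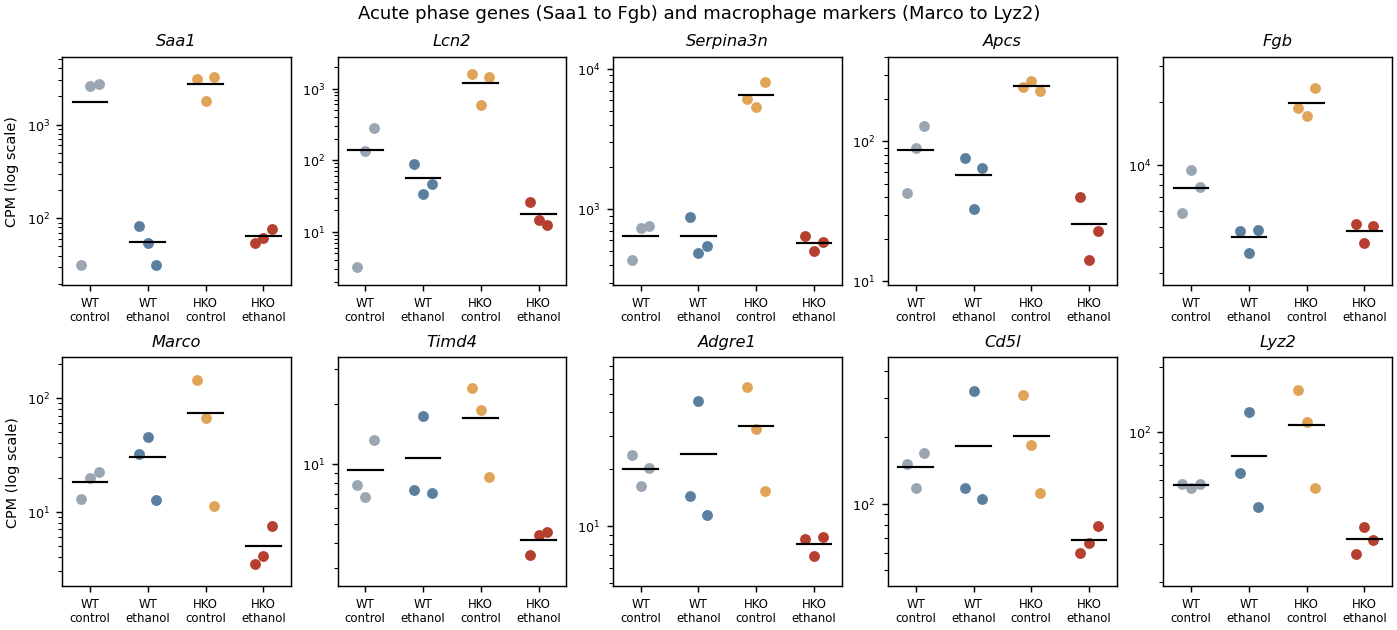
CPM on a log scale in each of the 12 livers (points) with the mean of each group of 3 (lines), for 5 acute phase genes (top) and 5 macrophage markers (bottom). The 3 HKO-ethanol livers lie below the 3 HKO-control livers for each gene (Saa1 at 54.2 to 77.6 CPM against 1772 to 3254 CPM), and for the macrophage markers the HKO-control livers are spread widely (Marco at 11.2 to 145 CPM).

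Xenobiotic metabolism rose. Of the CAR and PXR targets 19 of 29 tested members were called higher and none lower (against 10.3% of all tested genes called higher), with a median of 1.53 (1.74 in WT, where 17 were called). Cyp2a5, a coumarin hydroxylase, rose 14.3-fold (144, 55.7 and 192 CPM against 1612, 2249 and 1727 CPM, adjusted p = 0.0026). Cyp2c55, a further cytochrome gene of the list, rose 6.76-fold (0.425, 0.495 and 1.39 CPM against 6.21, 4.0 and 5.25 CPM, adjusted p = 0.0065). Cyp2b13 was near the floor in control livers (0, 0 and 0.202 CPM) and at 36.6, 3.47 and 6.85 CPM in ethanol livers (adjusted p = 0.0077). Cyp2b9, Cyp2b10 and Cyp2b13, and likewise Cyp2a4 and Cyp2a5, are close copies among which reads could be split. In this list 6 of 29 interactions were below 0 (11.1% of all tested genes) and none above (11.2%). Without 1 library 16 to 21 members were called higher.

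Glutathione transferases rose for 15 of 21 members and fell for none (median 1.32). Gstm1, an abundant hepatic isoenzyme, rose 4.53-fold (485, 421 and 944 CPM against 2568, 3336 and 2481 CPM, adjusted p = 0.0048). Gstm3 rose 9.88-fold (12.4, 10.3 and 22.7 CPM against 146, 151 and 151 CPM, adjusted p = 0.0014) and Gstm4 rose 4.68-fold (15.3 to 25 CPM against 88.8 to 115 CPM). The ethanol livers were close to each other for Gstm3, and WT-ethanol livers were higher still, at 381 to 567 CPM (interaction -1.28, adjusted p = 0.035). Gsta1 rose 3.29-fold in HKO (1.44, 1.64 and 2.26 CPM against 5.12, 8.41 and 3.97 CPM, adjusted p = 0.0090) and from 0.571 to 1.38 CPM to 13.1 to 77.3 CPM in WT, an interaction of -3.97 (adjusted p = 0.0065). The members of this family are similar in sequence, and the split of reads among them was set upstream.

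Of the conjugating sulfotransferases and glucuronosyltransferases 9 of 21 rose and 2 fell. Ugt1a9 rose 7.86-fold (7.49 to 23.0 CPM against 74.2 to 154 CPM) and Ugt2b35 rose 5.07-fold (32.2, 51.0 and 39.1 CPM against 218, 186 and 215 CPM, adjusted p = 0.0013). Those that fell were Ugt2b37 (41.7, 45.2 and 24.3 CPM against 2.13, 2.19 and 4.28 CPM, 13.1-fold, adjusted p = 0.0016) and Sult1e1, the estrogen sulfotransferase (5.55, 0.70 and 1.77 CPM against 0, 0.0617 and 0.158 CPM, adjusted p = 0.013). Both were low in WT livers on either diet, Ugt2b37 at 1.74 to 4.02 CPM and Sult1e1 at up to 0.227 CPM.

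NRF2 targets rose for 12 of 24 and fell for 1, with a median of 0.83 against 1.89 in WT, where 18 rose. The member that fell was Srxn1, sulfiredoxin, from 326, 328 and 217 CPM to 68.0, 77.4 and 46.6 CPM (4.53-fold, adjusted p = 0.0023). In WT livers Srxn1 rose from 27.1, 28.1 and 31.6 CPM to 176, 115 and 107 CPM, and the interaction was -4.37 (adjusted p = 0.00011). The interaction was below 0 for 8 members and above 0 for 1. Ftl1, the ferritin light chain that stores iron, rose 1.74-fold (1928 to 2236 CPM against 3533 to 3632 CPM).

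Genes of ethanol and acetaldehyde oxidation rose for 6 of 14 and fell for none (median 0.60). Adh1, the main hepatic alcohol dehydrogenase, rose 2.14-fold (1003, 727 and 1486 CPM against 2367, 2416 and 2091 CPM, adjusted p = 0.019), and its adjusted p was 0.061 without control liver 1, 0.0503 without ethanol liver 1 and 0.054 without ethanol liver 2. Adh1 was also called higher in WT (1293 to 1467 CPM against 2457 to 2778 CPM, log2 0.94, adjusted p = 0.0088). Its interaction was 0.16 (adjusted p = 0.75). Aldh1b1, a mitochondrial aldehyde dehydrogenase, rose 2.5-fold (28.4, 23.6 and 31.5 CPM against 99.8, 48.7 and 60.0 CPM, adjusted p = 0.011). Catalase, which oxidizes ethanol with hydrogen peroxide, rose 1.81-fold (Cat at 1467, 1680 and 1886 CPM against 3226, 3098 and 2809 CPM). Aldh2, the main acetaldehyde dehydrogenase, was not called (1996 to 2851 CPM against 2824 to 3313 CPM, log2 0.35, adjusted p = 0.17). Cyp2e1, the microsomal ethanol-oxidizing cytochrome, was at 4926, 3607 and 6288 CPM in HKO-control livers and at 7014, 6252 and 6178 CPM in HKO-ethanol livers, with overlapping groups (log2 0.39 ± 0.22, adjusted p = 0.21). In WT livers Cyp2e1 was lower with ethanol (6682 to 7746 CPM against 4126 to 4292 CPM, log2 -0.81, adjusted p = 0.020), and the interaction was 1.2 (adjusted p = 0.0088). The count of higher members was 3 without ethanol liver 1 (median 0.40) and 4 or 5 without any other library.

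The genes by which male and female livers differ, set by the pulsatile or steady release of growth hormone, responded differently in the genotypes. In HKO livers 6 of 29 male-biased genes were called higher and 2 lower (median 0.25), whereas in WT livers 20 were called lower and none higher (median -2.49), and the interaction was above 0 for 22 of them and below 0 for none. The HKO count of higher members was 3 without control liver 1 or without ethanol liver 3. The HKO median ran from 0.15 without ethanol liver 2 to 0.59 without control liver 2. Cyp2d9, a testosterone hydroxylase of male liver, rose 2.23-fold in HKO (742, 676 and 674 CPM against 1226, 1559 and 1885 CPM, adjusted p = 0.0050) and fell in WT (1603 to 1934 CPM against 647 to 1015 CPM), an interaction of 2.24 (adjusted p = 0.00049). Hsd3b5, a steroid dehydrogenase of male liver, was at 9.15, 27.0 and 18.4 CPM against 12.5, 91.2 and 88.2 CPM in HKO (adjusted p = 0.093), and it passed the test without ethanol liver 1 (log2 2.3, adjusted p = 0.015). In WT Hsd3b5 went from 256, 241 and 252 CPM to 0, 0.143 and 0.605 CPM, an interaction of 11.72 (adjusted p = 0.00031). HKO-control livers were thus below WT-control livers for both genes, a difference of genotype that the diet comparison does not test.

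Female-biased genes gave 3 calls in each direction among 26 tested in HKO (median 0.51) and 13 higher and none lower in WT (median 1.84), with 6 interactions below 0. Single libraries decided the HKO median, which was -0.30 without ethanol liver 1 and 1.13 without control liver 3, and DESeq2 called 6 members higher. Cyp2a4, a female-biased steroid hydroxylase, was at 0.229, 0.0682 and 6.39 CPM in HKO-control livers and 27.5, 53.0 and 2.66 CPM in HKO-ethanol livers (adjusted p = 0.11). Cyp2b9 was at 0, 0 and 33.7 CPM against 265, 48.1 and 70.2 CPM (adjusted p = 0.21). In WT livers both had no read on control diet and 207 to 471 CPM and 353 to 793 CPM on ethanol, at least 5723-fold and at least 9607-fold higher against 3 reads per library. In HKO the highest control for both genes was liver 3, and without it both passed the test (adjusted p = 0.019 for Cyp2a4 and 0.0067 for Cyp2b9). The female-biased count without that liver was 7 higher.

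In the growth hormone axis 3 of 15 genes rose and 3 fell. Igfals, which binds circulating IGF-1, rose 2.79-fold (25.9, 38.0 and 56.2 CPM against 129, 112 and 94.5 CPM, adjusted p = 0.0090). Socs2, a STAT5 target that restrains the growth hormone receptor, fell 7.40-fold (18.6, 21.8 and 58.7 CPM against 4.01, 4.72 and 4.64 CPM, adjusted p = 0.0052). The 2 genes had interactions of opposite sign, 1.52 for Igfals and -2.64 for Socs2 (adjusted p = 0.0090 and 0.034).

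**Figure D4:**
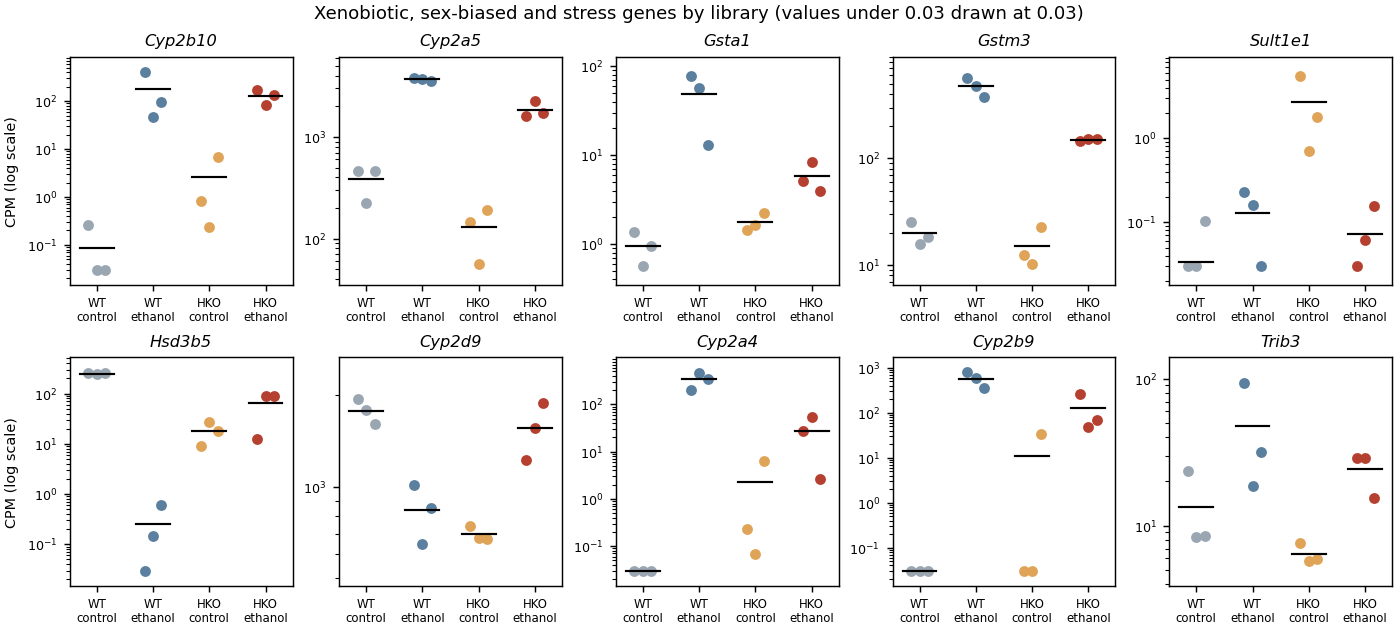
CPM on a log scale in each of the 12 livers (points, with the group mean as a line) for 5 genes of xenobiotic metabolism (top), and for Hsd3b5 and Cyp2d9 (male-biased), Cyp2a4 and Cyp2b9 (female-biased) and Trib3 (stress) below. Cyp2b10 rises in both genotypes, Sult1e1 lies at 0.70 to 5.55 CPM in the HKO-control livers and at 0.227 CPM or less in the other 9 livers, and Hsd3b5 lies at 241 to 256 CPM in WT-control livers and at 0.605 CPM or less in WT-ethanol livers.

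Genes of de novo lipogenesis rose for 6 of 24 and fell for none (median 0.58). Srebf1, the transcription factor of fatty acid synthesis, was at 69.7, 76.7 and 86.4 CPM against 437, 140 and 153 CPM (3.14-fold, adjusted p = 0.028). Its adjusted p was 0.082, 0.082 and 0.055 without control livers 1, 2 and 3, and ethanol liver 1 was the highest by a wide margin. Mlxipl, which encodes the glucose-sensing factor ChREBP, rose 2.14-fold (276, 376 and 382 CPM against 876, 550 and 788 CPM, adjusted p = 0.010) and Dgat2, the last enzyme of triglyceride synthesis, 1.98-fold (294 to 323 CPM against 549 to 737 CPM). In WT livers Srebf1 was lower with ethanol (log2 -1.27, adjusted p = 0.026), and its interaction was 2.92 (adjusted p = 0.0049). The count of higher members was 3 without control liver 2, and the median was 0.18 without ethanol liver 1.

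Cholesterol synthesis genes gave 3 higher and 1 lower of 24 in HKO (median -0.18), against none higher and 11 lower in WT (median -1.16). Insig1, which holds back SREBP processing, rose 2.55-fold in HKO (94.7, 109 and 62.1 CPM against 213, 251 and 215 CPM, adjusted p = 0.0054) and did not pass in WT (log2 -0.35, adjusted p = 0.38), with an interaction of 1.70 (adjusted p = 0.0059). Without ethanol liver 1 the count of lower genes in HKO was 7 and the median -0.64, and the median was 0.023 without ethanol liver 2. Of genes of fatty acid oxidation and ketogenesis 7 of 36 rose and 1 fell, and 4, 3 and 3 rose without control liver 1, control liver 2 and ethanol liver 1. The member that fell was Cpt1a, the gate of mitochondrial fatty acid import, at 525, 547 and 672 CPM against 238, 319 and 320 CPM (1.99-fold, adjusted p = 0.0066). Ppargc1a, the coactivator PGC-1 alpha, rose 2.85-fold (4.87, 3.67 and 4.68 CPM against 13.5, 12.5 and 11.6 CPM, adjusted p = 0.0017) and Acot1, an acyl-CoA thioesterase, 3.56-fold (6.60 to 15.4 CPM against 31.5 to 35.7 CPM).

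Lipid droplet genes rose for 2 of 21 and fell for 3, shares near those of all tested genes (10.3% and 11.7%). The 3 that fell were Plin2, Cidec and Fabp4, the last given above with the adipocyte list. Plin2, the main coat protein of hepatocyte droplets, fell 2.31-fold (709, 757 and 965 CPM against 338, 337 and 377 CPM, adjusted p = 0.0029). Cidec, which fuses droplets, fell 5.83-fold (11.9, 30.1 and 32.9 CPM against 2.3, 7.93 and 2.57 CPM, adjusted p = 0.017), with adjusted p of 0.051 without control liver 2 and 0.058 without ethanol liver 3. WT livers held 1.29 to 2.23 CPM of Cidec on control diet and 2.12 to 4.29 CPM on ethanol. In WT livers Plin2 was at 325 to 501 CPM on control diet and 332 to 605 CPM on ethanol, and its interaction was -1.56 (adjusted p = 0.0074). Among lipoprotein genes Apoa4 fell 2.14-fold in HKO (635, 675 and 603 CPM against 292, 297 and 304 CPM, adjusted p = 0.0016) and rose in WT (164 to 322 CPM against 850 to 2068 CPM), an interaction of -3.38 (adjusted p = 0.00098).

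Ceramide and sphingolipid genes gave 3 calls in each direction among 25 (12% each, near the 10.3% and 11.7% of all tested genes), with a median of -0.04. Sptlc2, a subunit of the rate-limiting serine palmitoyltransferase, fell 2.98-fold (62, 45.4 and 53.4 CPM against 19.3, 16.9 and 17.7 CPM, adjusted p = 0.0014), and WT livers lay at 17.5 to 25.1 CPM (interaction -1.92, adjusted p = 0.00016). Cers6, a ceramide synthase for C16 chains, fell 2.97-fold (66.8, 42.2 and 115 CPM against 31.3, 21.5 and 22.6 CPM, adjusted p = 0.016) and rose in WT (9.57 to 15.6 CPM against 28.1 to 36 CPM), an interaction of -2.88 (adjusted p = 0.0018). Its HKO adjusted p was 0.055 without ethanol liver 2 and 0.059 without ethanol liver 3. Of phospholipid genes 6 of 25 rose and 1 fell, with 3 higher without control liver 2 and 2 without ethanol liver 3.

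In carbohydrate metabolism 8 of 20 genes of gluconeogenesis and glycolysis rose and none fell (median 0.79), with 5 higher without control liver 2 and a median of 0.43 without ethanol liver 1. Pck1, the gluconeogenic phosphoenolpyruvate carboxykinase, rose 2.52-fold (3044, 1494 and 2226 CPM against 4779, 5991 and 6256 CPM, adjusted p = 0.012) and rose in WT as well (1017 to 1307 CPM against 2948 to 3787 CPM). Pdk2, an inhibitor of pyruvate dehydrogenase, rose 2.75-fold (57.7, 54.0 and 41.2 CPM against 160, 116 and 144 CPM) with an interaction of 1.87 (adjusted p = 0.0011). Periportal hepatocyte genes rose for 9 of 20 and fell for none (median 0.74), and 5 had an interaction above 0. Cyp2f2, a periportal monooxygenase, rose 2.52-fold (627, 781 and 682 CPM against 1599, 1696 and 1973 CPM, adjusted p = 0.0023), Hal, histidine ammonia lyase, 2.40-fold, and Gls2, liver glutaminase, 2.06-fold. Pericentral genes gave 4 of 20 higher and 1 lower, with Rhbg, an ammonium transporter, at 7.52 to 17.3 CPM against 28.8 to 34.8 CPM (2.95-fold), and 2 were higher without control liver 3.

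Bile acid genes rose for 10 of 26 and fell for 1, with 6 higher without control liver 2 or without ethanol liver 3. Cyp8b1, the sterol hydroxylase that sets cholic acid, rose 3.41-fold (79.8, 146 and 68.6 CPM against 450, 304 and 252 CPM, adjusted p = 0.0097) and Akr1c14, a hydroxysteroid dehydrogenase, 4.12-fold (48.1 to 85.2 CPM against 257 to 300 CPM). The interaction for Cyp8b1 was 2.71 (adjusted p = 0.012), with WT livers at 491 to 646 CPM on control diet and 144 to 542 CPM on ethanol. In the kynurenine pathway, whose products include AhR ligands, 4 of 11 genes rose and none fell (median 0.53, WT -0.31), with 2 higher without control liver 1 or without ethanol liver 3. Tdo2, the tryptophan dioxygenase of hepatocytes, was at 726, 401 and 1361 CPM against 1047, 1491 and 1245 CPM (log2 0.60, adjusted p = 0.29), and its log2 was 1.16 (adjusted p = 0.031) without control liver 3. Ido2 rose 1.68-fold (45.1, 53.1 and 57.8 CPM against 99.9, 68.2 and 94.5 CPM, adjusted p = 0.017), with adjusted p of 0.053 without control liver 1 and 0.059 without ethanol liver 3, and Ido1 had no read in any library. Afmid, the formamidase of the pathway, rose 2.86-fold (38.9, 43.4 and 66.1 CPM against 158, 136 and 131 CPM, adjusted p = 0.0038). Of methionine cycle genes 6 of 20 rose and 2 fell, with 2 higher without control liver 1 or 2 or without ethanol liver 1 or 3. Cth, cystathionine gamma-lyase, rose 1.95-fold.

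ATF4 and serine synthesis genes responded differently in the genotypes. Of 22 members 2 were called higher and 2 lower in HKO (median 0.00), against 11 higher and none lower in WT (median 1.59), and 12 had an interaction below 0 with none above. Trib3, a pseudokinase induced by ATF4, rose 3.78-fold in HKO (7.61, 5.80 and 5.95 CPM against 29.1, 28.7 and 15.4 CPM, adjusted p = 0.0036), with an interaction of 0.09 (adjusted p = 0.95). Psat1, a serine synthesis enzyme, fell 4.23-fold in HKO (2.11, 1.01 and 1.79 CPM against 0.581, 0.309 and 0.248 CPM, adjusted p = 0.013) and rose in WT (0.536 to 0.756 CPM against 2.24 to 5.08 CPM), an interaction of -4.78 (adjusted p = 0.00064). Shmt2, mitochondrial serine hydroxymethyltransferase, rose 1.79-fold. Slc7a11, the cystine carrier, had no read in any HKO library. Of 22 genes of the unfolded protein response 1 fell and none rose: Xbp1, its transcription factor, was at 371, 344 and 503 CPM against 113, 195 and 187 CPM (2.46-fold, adjusted p = 0.0092). WT livers held 154 to 225 CPM of Xbp1 on control diet and 104 to 174 CPM on ethanol. The count of lower members was 6 without control liver 2, 3 without ethanol liver 2, 6 with DESeq2 and 4 or 5 with limma on FPKM, and 2 of the 22 had an interaction below 0 and none above.

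Glucocorticoid-responsive genes gave 1 higher (5%) and 4 lower (20%) of 20 in HKO, against 10.3% and 11.7% of all tested genes. Of the 20, 14 lay above 0 and 6 below (median 0.23). The 4 called lower were Lcn2, Mt1, Mt2 and Sult1e1, and the 1 called higher was Pck1. In WT 9 were called higher and none lower (median 1.26). The metallothionein genes Mt1 and Mt2, which bind zinc and also belong to the acute phase, fell 9.15-fold and 8.75-fold (Mt1 at 2388, 1839 and 3352 CPM against 427, 211 and 190 CPM, adjusted p = 0.0028). WT livers spanned 23.3 to 401 CPM for Mt1 on control diet, and the interactions of Mt1 and Mt2 did not pass (adjusted p = 0.056 and 0.082). Immediate early genes gave 1 lower of 16 (6.25%, against 11.7% of all tested genes) and none higher in HKO. Of the 16, 12 lay above 0 and 4 below (median 0.23). In WT 7 were called higher (median 1.23). The member that fell was Btg2, an antiproliferative factor (16.2 to 39.4 CPM against 7.70 to 11.9 CPM, 2.98-fold).

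Cell cycle genes fell for 5 of 23 and rose for 2. Ccnd1, cyclin D1, fell 4.60-fold (37.7, 87.4 and 117 CPM against 16.4, 21.8 and 14.4 CPM, adjusted p = 0.0081), and its interaction was -2.75 (adjusted p = 0.0032). Mki67, the Ki-67 antigen of dividing cells, and Top2a, a topoisomerase of dividing cells, fell 2.62-fold and 3.87-fold but were at most 1.67 CPM. Ccnb1, cyclin B1, had no read in the ethanol livers and 57 in the controls, at least 6.60-fold lower. Iron genes rose for 3 of 17 and fell for 5, with 3 lower without ethanol liver 3. Hamp, which encodes the iron hormone hepcidin, was at 385, 848 and 1502 CPM against 173, 380 and 96.4 CPM (4.21-fold, adjusted p = 0.042), and its adjusted p was 0.086 and 0.10 without control livers 2 and 3 and 0.11 and 0.10 without ethanol livers 1 and 3. Slc39a14, a carrier of zinc and iron, fell 3.17-fold (452, 466 and 703 CPM against 174, 167 and 170 CPM, adjusted p = 0.0024) and Tfrc, the transferrin receptor, rose 2.41-fold (7.78 to 11.3 CPM against 22.4 to 23.8 CPM). WT livers held 116 to 155 CPM of Slc39a14 on control diet and 134 to 147 CPM on ethanol.

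Genes of the phosphatase PP2A and of AMPK, which the study follows downstream of AhR, gave 3 higher and none lower of 20 (median -0.14, or -0.03 without ethanol liver 2). The called shares were 15% higher and 0% lower, against 10.3% and 11.7% of all tested genes. Ppp2r2d, a regulatory B subunit, was at 24.2, 25.8 and 31.7 CPM in HKO-control livers and 21.1, 23.3 and 22.7 CPM in HKO-ethanol livers (log2 -0.28 ± 0.12, adjusted p = 0.11). In WT livers Ppp2r2d was at 20.8, 20.4 and 18.9 CPM on control diet and 29.7, 28.5 and 26.5 CPM on ethanol (log2 0.49, adjusted p = 0.021), and the interaction was -0.78 (adjusted p = 0.0050). The other B subunits that rose were Ppp2r5a, up 1.94-fold (67.8, 80.2 and 74.2 CPM against 174, 136 and 122 CPM) and Ppp2r3a, up 1.82-fold (5.28 to 8.04 CPM against 10.3 to 13.4 CPM). Ppp2r5c was not called (log2 0.06, adjusted p = 0.66), and Ppp2r5d passed the adjusted p (0.0069) but not the fold limit (1.43-fold). Prkaa2, the AMPK alpha 2 catalytic subunit, rose 2.09-fold (24.0, 30.8 and 21.9 CPM against 51.2, 53.9 and 55.1 CPM, adjusted p = 0.0030), whereas Prkaa1, alpha 1, lay at 9.17 to 11.5 CPM against 9.57 to 10.7 CPM (log2 -0.06, adjusted p = 0.75). Prkaa2 was also called higher in WT (41.1 to 48.6 CPM against 59.1 to 82.0 CPM, log2 0.60, adjusted p = 0.041). Its interaction did not pass (0.46, adjusted p = 0.13).

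Autophagy genes gave 4 higher and 3 lower of 45 (8.89% and 6.67%, against 10.3% and 11.7% of all tested genes), with a median of 0.09. Sqstm1, the receptor p62, was at 522, 531 and 549 CPM against 495, 465 and 480 CPM (log2 -0.15, adjusted p = 0.28), and its interaction was -0.93 (adjusted p = 0.018), with WT-ethanol livers at 532 to 885 CPM against 365 to 403 CPM. Map1lc3b, the autophagosome protein LC3B, was not called (log2 -0.38, adjusted p = 0.12). Uvrag, a subunit of the lipid kinase complex of autophagy, rose 1.69-fold and Gabarapl1, an LC3 relative, 1.58-fold, while Ambra1, a regulator of autophagy initiation, fell 1.62-fold and Atg2a, a lipid transfer protein of the growing membrane, 2.11-fold. Of 33 lysosomal genes 5 rose (15.2%) and 2 fell (6.06%), with 3 higher without control liver 2 or 3 or without ethanol liver 3. Glb1, beta-galactosidase, rose 2.68-fold (3.69 to 6.11 CPM against 11.2 to 18.1 CPM) and Neu1, sialidase, 1.83-fold.

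Clock genes rose for 9 of 19 and fell for none (median 0.86, WT 0.17), with 4, 5, 4 and 5 higher without control liver 2, control liver 3, ethanol liver 2 and ethanol liver 3. Nr1d1, the repressor REV-ERB alpha, rose 2.18-fold (107, 94.9 and 98.8 CPM against 175, 248 and 232 CPM, adjusted p = 0.0034). Cry1, a repressor whose promoter is shown above, rose 2.64-fold (4.31, 3.57 and 3.99 CPM against 10.6, 6.93 and 13.8 CPM, adjusted p = 0.0080). Dbp, an output factor of the clock, was at 41.1, 12.5 and 17.5 CPM against 33.9, 179 and 141 CPM, with overlapping groups (adjusted p = 0.038), and was not called without control liver 2 or 3 or ethanol liver 2 or 3 (adjusted p = 0.11, 0.097, 0.10 and 0.093). The labels give no time of day for the collection of the livers.

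Respiratory chain genes had a median of 0.38, and all 31 lay above 0. For 27 of 31 the CPM ranges did not overlap and were higher with ethanol, against 24.5% of all tested genes. The adjusted p was passed by 11 of 31 (by 31.2% of all tested genes in either direction), but 1 exceeded the fold limit: Ndufa5, a complex I subunit (1.55-fold, adjusted p = 0.021). Its call was lost without control liver 1 or 2 (adjusted p = 0.055 and log2 0.49, under the fold limit) and without ethanol liver 2 or 3 (adjusted p = 0.055 and 0.064), whereas 3 members were called without control liver 3 and 2 without ethanol liver 1. No cytosolic ribosomal protein gene of 32 was called by edgeR (median 0.11), none had an unadjusted p under 0.05, and DESeq2 called 0. Rps2 was at 436 to 556 CPM against 550 to 632 CPM and Rpl10 at 456 to 583 CPM against 487 to 539 CPM. Histone genes gave 1 higher and 2 lower of 15, and DESeq2 called 4 lower.

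**Figure D5:**
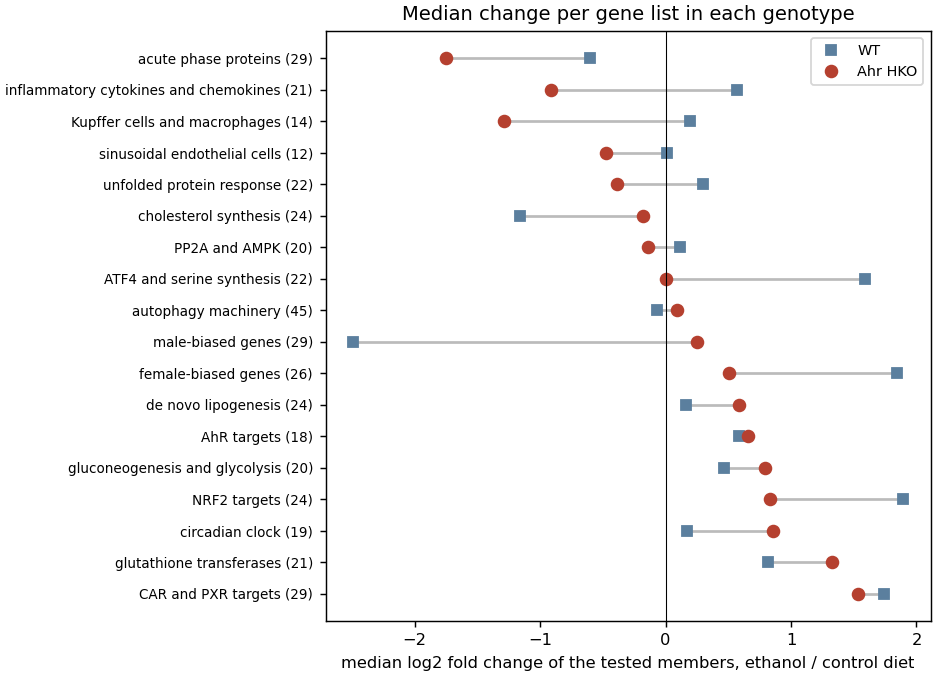
Median log2 fold change of ethanol against control diet over the tested members of 18 gene lists (number tested in parentheses), in Ahr HKO (circles) and WT (squares) livers. The genotypes lie far apart for male-biased genes (0.25 in HKO, 0.15 to 0.59 without 1 HKO library, and -2.49 in WT), ATF4 genes (0.00 and 1.59) and Kupffer cell genes (-1.29 and 0.19), and close together for CAR and PXR targets (1.53 and 1.74). The Kupffer cell genes summed to 1305 CPM in WT-ethanol liver 2, against 573 and 533 CPM in WT-ethanol livers 1 and 3.

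Among the single genes with the largest differences between the genotypes, Ly6d was called in opposite directions. Ly6d, a surface protein of the Ly6 family, fell 32.8-fold in HKO (76.9, 35.3 and 21.3 CPM against 1.62, 1.60 and 0.767 CPM, adjusted p = 0.0023) and rose in WT (0.742, 1.98 and 1.25 CPM against 37.7, 21.7 and 6.85 CPM), an interaction of -9.08 (adjusted p = 0.00032). Clec2h, a C-type lectin, rose 27.7-fold in HKO (0.0653, 0.256 and 0.484 CPM against 5.58, 11.0 and 5.25 CPM, adjusted p = 0.0030), while WT livers went from 9.19 to 18.4 CPM to 0.0755 to 2.73 CPM (adjusted p = 0.060). Slc13a2, a citrate and succinate carrier, rose in HKO from 0.0817, 0 and 0.121 CPM to 4.99, 1.27 and 3.65 CPM (48.8-fold, adjusted p = 0.0047). For Clec2h and Slc13a2 the HKO-control livers were below each WT-control liver, and the interactions were 7.88 and 6.86 (adjusted p = 0.0017 and 0.0027).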

How the data were processed

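RNA from 12 mouse livers was sequenced after TruSeq stranded mRNA preparation. According to the submitters' notes, the authors used FastQC 0.11.7, Trimmomatic 0.38, HISAT2 2.1.0, Bowtie2 2.3.4.1 and StringTie 1.3.4d with mm10. The deposited table gives, per gene and library, read counts by the authors (whole numbers, not normalized), FPKM values by the authors (per kilobase of transcript and library size) and TPM values by the authors, which were not used. Whether counting used strand, and how reads shared by similar genes were assigned, is not given in the sources used here, so the values of gene families and overlapping genes are uncertain.

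Counts were scaled by TMM over the 12 libraries, genes were kept by filterByExpr over the 4 groups, and the 6 Ahr HKO libraries were fitted with edgeR 4.0.16 (quasi-likelihood test, R 4.3.3) without covariates, with Benjamini-Hochberg adjustment over all 14038 tested genes. A gene was called at an adjusted p under 0.05 and a fold change above 1.5. WT livers were fitted alike, and the interaction used all 12 libraries at an adjusted p under 0.05. CPM denotes counts per 1000000 reads of the TMM-scaled library. The scripts were tested on simulated data. Alternatives were DESeq2 1.42.0, limma 3.58.1 on FPKM (pseudocount 1 or 0.1), other scalings and filters, the liver number as a block, and leaving out each library.

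Named genes were those of a list of key genes, the 15 largest changes in each direction without overlap of the diets and with 50 reads or more on average, up to 6 called members of each gene list with the largest changes (or 2 abundant members), and the 5 largest interactions in each direction. A subset of 140 of the 241 eligible genes is named, and some results are not reported here. Members, gene lists and motifs were chosen with earlier results of these data known. No deposited column holds a comparison made by the authors, and promoters are from RefSeq (GRCm38.p6).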

Additional observations from a re-analysis of the deposited data

Results flagged for a closer look

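The genes below were picked out because the response to ethanol differed between the genotypes by the interaction of genotype and diet over all 12 libraries (adjusted p under 0.05, edgeR). Values are HKO minus WT, as differences of log2 fold changes. The interaction was refitted without HKO libraries only, and only as a count of genes. No single value below was thus checked with a library left out, and none without a WT library. No explanation was tested.

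The response was higher in HKO than in WT for genes of male-biased expression and the growth hormone axis (Hsd3b5 by 11.72, Cyp2d9 by 2.24, Igfals by 1.52), of the membrane and secretory proteins Clec2h (7.88), Slc13a2 (6.86), Ptgds (3.84), Ecm1 (0.86), Ccl9 (0.85) and Bst2 (0.62), and of Fam13a (4.01). Lipid and bile acid genes followed with Srebf1 (2.92), Cyp8b1 (2.71), Insig1 (1.70), Akr1c14 (1.37), Mlxipl (0.98), Ppargc1a (0.93) and Dgat2 (0.85). Clock genes were Dbp (2.74) and Nr1d1 (1.55). Periportal, carbohydrate and amino acid genes were Pdk2 (1.87), Afmid (1.55), Cyp2f2 (1.49), Ido2 (1.36), Shmt2 (1.14), Hal (1.13) and Gls2 (0.95). Ethanol and conjugation genes were Cyp2e1 (1.2), Cat (0.85) and Ugt2b35 (0.81), and genes of PP2A, autophagy and lysosomes were Ppp2r3a (0.80), Uvrag (0.74), Ppp2r5a (0.72), Neu1 (0.68) and Ppp2r5d (0.49).

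The response was lower in HKO than in WT for 48 named genes. The fitted values of Cyp2b9 (-14.48), Cyp2a4 (-13.58), Timp1 (-10.37), Ccnb1 (-7.77) and Sult1e1 (-7.15) depend on the prior count, since a group was at or near 0 reads, and are no bounds. Large differences were also seen for Ly6d (-9.08), Syt12 (-5.95), Adcy1 (-5.83) and Psat1 (-4.78). Acute phase genes were Lcn2 (-4.74), Serpina3n (-3.50), Apcs (-2.67) and Fgb (-1.25). Macrophage, leukocyte and inflammatory genes were Cxcl13 (-5.05), Marco (-4.62), Itgam (-4.08), S100a9 (-3.08), S100a8 (-3.01), Icam1 (-2.66), Ccl6 (-2.49), Fabp4 (-2.45), Adgre1 (-2.33), Timd4 (-2.24), Lyz2 (-2.23), Cd5l (-1.88), Ptprc (-1.52) and Irgm1 (-1.08). Antioxidant and conjugation genes were Srxn1 (-4.37), Gsta1 (-3.97), Ugt2b37 (-3.37), Gstm3 (-1.28) and Htatip2 (-1.16). Lipid genes were Cidec (-3.48), Apoa4 (-3.38), Cers6 (-2.88), Fabp4 (-2.45), Sptlc2 (-1.92) and Plin2 (-1.56). The others were Ccnd1 (-2.75), Socs2 (-2.64), Btg2 (-2.44), Slc39a14 (-1.75), Ahr (-1.23), Sqstm1 (-0.93), Pdgfrb (-0.88), Ppp2r2d (-0.78), Arnt (-0.67), Ambra1 (-0.51) and Ppp2r5c (-0.37).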

How the results depend on the processing

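The count of genes called in Ahr HKO (3093) was within 1.5 times of that value under DESeq2, upper-quartile scaling, 3 other filters, a fit over all 12 libraries, and limma on log2(FPKM + 0.1). It was 1903 (822 higher, 1081 lower) with limma on log2(FPKM + 1) and 1787 (934 higher, 853 lower) with quantile-normalized values; the cause was not tested. Leaving out 1 library gave 2268 to 2979 (1104 to 1366 higher, 1164 to 1613 lower), with fewer samples in each fit. The WT count (924) was 1444 with DESeq2 and 360 to 830 without 1 library, and the interaction count (3137) was 2310 to 2936 without 1 HKO library. The first principal component took 54.3% on log2 CPM and 65.6% to 71.4% without 1 library. Deviations of equally numbered livers correlated at -0.088, -0.063 and -0.012. With 3 livers per group these values cannot decide whether samples were paired, and the column codes were not compared. With the replicate block the counts were 2482 in HKO, 530 in WT and 2745 for the interaction, and called members were 4 lower for Kupffer cells and 4 higher for the clock.

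For 138 named genes under all settings, 2251 of 2333 values kept direction and side of the threshold, 67 lost the call, 8 gained it and 7 changed sign, all of genes that were not called: Tiparp (-1.06 to 0.024 without 1 library, above 0 without control liver 3), Prkaa1 (0.031 with quantile-normalized values, -0.14 to 0.017 without 1 library, above 0 without control liver 2) and Rpl10 (0.0046 with DESeq2, -0.081 to 0.10 without 1 library, above 0 without control liver 1 or ethanol liver 1 or 3). Counts under 3 reads per library bound what can be said of rare transcripts. TMM over the 6 HKO libraries alone, the list counts without each library and the ratios of 3 low genes without each control were added after the data were seen.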
